A study of Mus musculus with 31 samples.

Results

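Immediate early transcription factors in the kidney were followed in polycystic Pcy/CD1 mice given PBS or RGLS4326 and in wild-type CD1 mice. The group held 10 genes, Fos, Fosb, Fosl2, Jun, Junb, Egr1, Atf3, Ier2, Ier3 and Klf6, which were picked by gene symbol from the 23509 genes of the deposited count tables. All 10 passed the filter on low counts, which kept 15185 genes. RNA-seq counts came from the kidneys of 31 mice, of which 12 were PBS-treated Pcy/CD1 mice, 14 were Pcy/CD1 mice given 25 mg kg−1 RGLS4326 and 5 were untreated wild-type CD1 mice. RGLS4326 is a short chemically modified oligonucleotide directed against the seed of the microRNA miR-17. Pcy/CD1 mice carry the pcy mutation on the CD1 background and develop slowly progressing kidney cysts, and both treatment groups share that mutation, so neither is a healthy control. Dosing was subcutaneous, started at 5 weeks of age and lasted 25 weeks, and kidneys were taken at 30 weeks. RGLS4326 was given monthly. For PBS, 1 label and the study's description say weekly, whereas the protocol says monthly for it too, so how often mice were injected may differ between the groups and cannot be told apart from the agent. Wild-type mice were male and of the same age but received no injection, so disease, injection and housing cannot be told apart in a comparison with them. The Pcy/CD1 mice were male by the study's description, not by the labels, and Xist was at most 0.3001 CPM and Ddx3y, a Y-linked gene, was at least 18.5 CPM in each of the 31 mice.

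Immediate early genes are switched on within minutes of a growth factor, stress or injury signal because their control proteins are already present in the cell. Their transcripts are short-lived, so their level reflects signalling shortly before the tissue was frozen. Fos, Fosb and Fosl2 belong to the Fos family and Jun and Junb to the Jun family, and a Fos protein pairs with a Jun protein to form the AP-1 transcription factor. Egr1 and Klf6 are zinc finger factors, Atf3 is a stress-induced relative of AP-1, and Ier2 and Ier3 were named for their immediate early response. Ier3 is a regulator of cell survival rather than a DNA-binding factor. In the kidney, members of this set are known to rise after tubular injury.

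The site that RGLS4326 addresses is the seed of miR-17, and each gene was therefore searched for the complement of that seed (GCACTTT) in its longest annotated 3′UTR (GENCODE annotation of GRCm38). A match was present in 3 of the 10 genes, Fosl2, Atf3 and Klf6, and in 13.98% of the 13832 tested genes with a 3′UTR. The mature miR-17-5p (RefSeq, GRCm38.p6, chr14:115043684-115043706, plus strand) is shown with bases 2 to 8 in capitals, followed by 30 bases around each match with the match in capitals.
miR-17-5p: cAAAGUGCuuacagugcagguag
Fosl2: ggcactatgagGCACTTTtctatttatcct
Atf3: ggatgttaatgGCACTTTtgtcttgtagct
Klf6: aaggggaaaatGCACTTTtgtttggcaatt
The 3′UTR windows lie at chr5:32156193-32156222 on the plus strand for Fosl2, chr1:191170512-191170541 on the minus strand for Atf3 and chr13:5869897-5869926 on the plus strand for Klf6, within 1 exon each. None of them is followed by the A that makes a longer seed site. A match is a description of the letters and not evidence of binding.

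Promoters from 250 bases before to 50 bases after the RefSeq start site (GRCm38.p6) were matched for 8 of the 10 genes and searched on both strands for motifs of factors that act on or through this set. The cyclic AMP and Atf/Jun type element TGACNTCA was found in Jun and Klf6 and in 8.834% of all 32851 promoters of that length. TATAAA was found in Fos and Junb and in 13.62% of promoters. The AP-1 motif TGANTCA (7.808% of promoters) and the CArG box bound by serum response factor (1.629%) had no match in these 8 windows, which says only that those letters do not occur there. No motif searched overlaps another in these windows. The 30 bases around each match are shown on the gene's strand with the match in capitals.
Jun: aagcctcggggTGACATCAtgggctatttt
Klf6: ttggtgcgagcTGACATCAtcgtcgcgcag
Fos: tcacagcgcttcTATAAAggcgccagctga
Junb: tgacaaattcagTATAAAagcttggggctg
These windows lie at chr4:95052249-95052278 (minus) for Jun, where the match begins 45 bases before the start site, at chr13:5861359-5861388 (plus) for Klf6, 119 bases before it, at chr12:85473845-85473874 (plus) for Fos, 33 bases before it, and at chr8:84978731-84978760 (minus) for Junb, at the RefSeq start itself.

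Counts on genes totalled 14892524 to 27459962 per mouse. Values are given as CPM, the usual count scaled to library size, here with edgeR's TMM factors. A gene was called where edgeR's quasi-likelihood test, fitted to all genes and all 31 mice, gave an adjusted p under 0.05 (Benjamini-Hochberg over all genes tested) and an absolute log2 fold change over 0.5. A few libraries stood apart. The library labelled RGLS4326-treated mouse 9 lay near the wild type in disease markers, with 2.76 CPM of Lcn2, which encodes the injury protein Ngal, against 126 CPM or more in the 13 other RGLS4326-treated mice. Whether that label is right was not settled by these data, and the ranges and folds of the RGLS4326 group include this library unless stated. Wild-type mouse 5 had high Fos, Fosb and Egr1, although its Lcn2 was 3.07 CPM. Results are given below with and without these mice where they move. Among the wild type, mice 3 and 4 resembled each other most, yet a chi-square of 2.84 per gene, over 10690 genes, put them further apart than counting noise, and they were kept as 2 mice. The index numbers in the deposited library names restart, which splits the mice into 3 index series; what they stand for was not stated, and they were used as technical batches.

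In PBS-treated Pcy/CD1 kidneys, 9 of the 10 genes were higher than in wild type and 1, Fosb, did not pass the test. Of all genes tested, 24.6% were called higher in the same comparison and 42.4% were called in either direction. The fold differences of the 9 ran from 2.47 for Jun to 5.88 for Atf3, with a median log2 fold change of 1.55 over the 10 genes against 0.01 over all genes. Groups did not overlap for 4 genes, Fosl2, Atf3, Ier3 and Klf6, whereas 20.3% of all genes had every PBS-treated mouse above every wild-type mouse. In bulk kidney, more cells that express a gene and more RNA per cell cannot be told apart. The members and their roles are described in turn below, with each fold change given on the log2 scale.

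**Figure D1:**
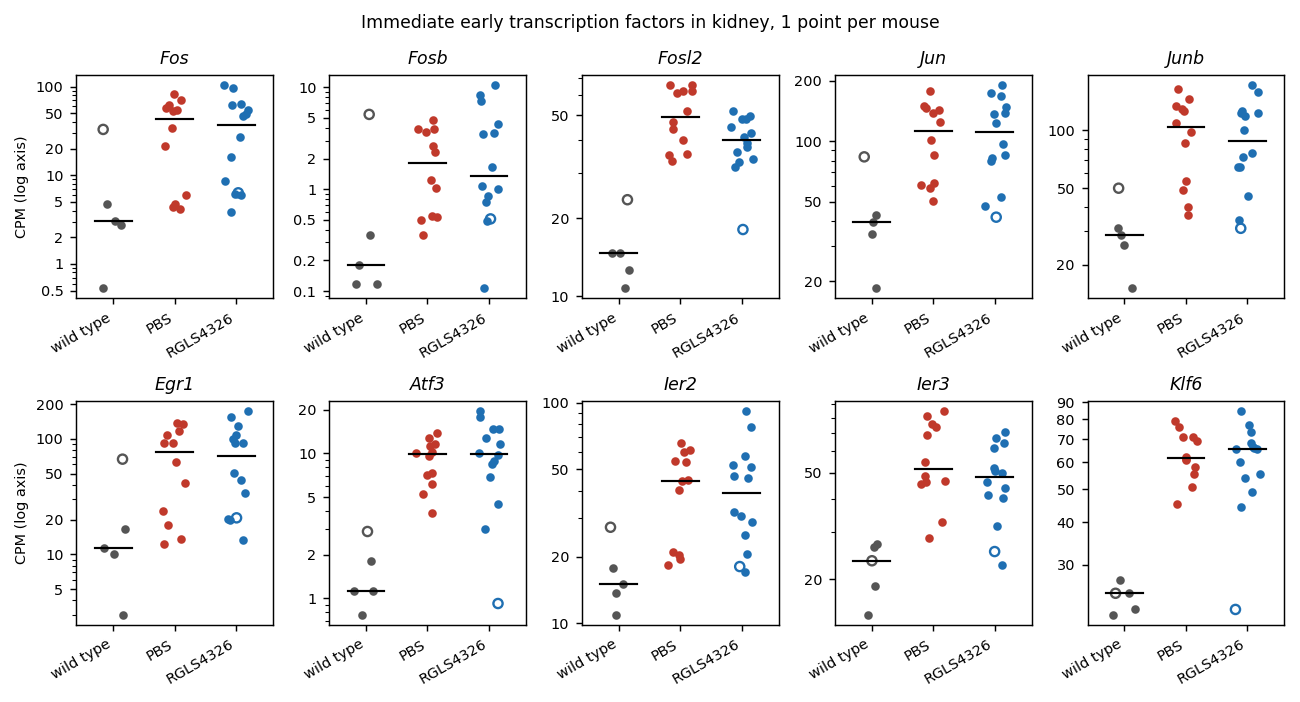
Level of each of the 10 genes in CPM (log axis) in 5 wild-type, 12 PBS-treated and 14 RGLS4326-treated kidneys, with 1 point per mouse and a bar at each group median; open circles mark wild-type mouse 5 and the library labelled RGLS4326-treated mouse 9. The PBS-treated and wild-type points are apart for Fosl2, Atf3, Ier3 and Klf6, and the 12 PBS-treated mice reach from 4.14 to 82.2 CPM for Fos.

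Among the Fos family, Fos itself, the classical AP-1 subunit (chr12:85473890-85477273, plus strand, GRCm38), read 0.531, 4.69, 2.72, 3.03 and 32.9 CPM in wild-type mice 1 to 5. With PBS it ranged from 4.14 to 82.2 CPM with a median of 43.5, and with RGLS4326 from 3.84 to 105 CPM with a median of 36.8. Wild-type mouse 5 alone overlapped the middle of the diseased range, and 4 PBS-treated mice lay at 5.95 CPM or less. The log2 fold change of PBS against wild type was 2.11 (SE, the standard error, 0.89, adjusted p = 0.0329 by edgeR's quasi-likelihood test). Fosb (chr7:19302696-19310051, minus), a Fos family subunit, was the least abundant of the set and was read from only 2 counts in its lowest libraries. It read 0.118, 0.356, 0.118, 0.182 and 5.42 CPM in wild-type mice 1 to 5, and 0.355 to 4.78 CPM with PBS (median 1.79). Its highest wild-type value lay above all 12 PBS-treated mice, and its log2 fold change of 0.78 (95% interval −0.97 to 2.54) did not pass.

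Fosl2 (chr5:32135801-32157842, plus), which encodes the Fos-related protein Fra-2, behaved with far less scatter. It read 10.7, 14.7, 12.6, 14.7 and 23.6 CPM in wild-type mice 1 to 5. PBS-treated mice lay between 33.2 and 65.7 CPM (median 49.5), so that all 12 were above all 5 wild-type mice. The log2 fold change was 1.72 (SE 0.21), the smallest adjusted p of the set (5.62e-08 by edgeR's quasi-likelihood test).

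Of the Jun family, Jun (chr4:95049034-95052222, minus), the partner with which Fos forms AP-1, read 18.5, 42.7, 34.5, 39.5 and 83.5 CPM in wild-type mice 1 to 5 and 50.5 to 179 CPM with PBS (median 112.5). Junb (chr8:84974484-84978718, minus), a related subunit that can restrain Jun, read 15.04, 30.9, 25.3, 28.5 and 49.98 CPM in wild type and 36.1 to 164 CPM with PBS (median 104). For both, 12 of 12 PBS-treated mice lay above wild-type mice 1 to 4 and the overlap came from wild-type mouse 5. Jun rose, with a log2 fold change of 1.3 (SE 0.37, adjusted p = 0.00212 by edgeR's quasi-likelihood test). Junb rose by 1.71 (SE 0.40, adjusted p = 0.00039, the same edgeR test). An antisense gene, Junos, overlaps Jun and Prdx2 overlaps Junb on the opposite strand; libraries were stranded, but whether counting used the strand was not stated, so reads from these neighbours cannot be told apart from the members' own.

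Of the zinc finger factors, Egr1 (chr18:34859823-34864984, plus), a factor induced by growth factor signalling, read 3.01, 16.5, 11.4, 9.99 and 66.7 CPM in wild-type mice 1 to 5. PBS-treated mice read 12.3 to 137 CPM (median 77.6), and 6 of the 12 lay above wild-type mouse 5. Its log2 fold change was 1.73 (SE 0.69, adjusted p = 0.025 by edgeR's quasi-likelihood test). Klf6 (chr13:5861482-5870394, plus), a Krüppel-like factor induced by injury, varied least between mice in wild type and with PBS. It read 22.2, 21.4, 24.7, 27.0 and 24.8 CPM in wild-type mice 1 to 5 and 45.2 to 79.2 CPM with PBS (median 61.8), with a wide gap between the groups. The log2 fold change was 1.40 (SE 0.18, adjusted p = 1.29e-07 by edgeR's quasi-likelihood test).

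Atf3 (chr1:191170296-191218039, minus), an Atf/Creb family factor of the stress response, had the largest fold change of the 10 with all mice in the fit, though without wild-type mouse 5 it was behind Fos and Fosb (2.91 against 3.79 and 3.42 on the log2 scale). It read 1.12, 0.772, 1.12, 1.82 and 2.89 CPM in wild-type mice 1 to 5 and 3.85 to 13.8 CPM with PBS (median 9.87), without overlap. The log2 fold change was 2.56 (SE 0.48, adjusted p = 2.42e-05 by edgeR's quasi-likelihood test). The gene Gm24748 overlaps Atf3 on the opposite strand, and the same limit on strand applies. Ier2 (chr8:84661331-84662852, minus), a nuclear protein induced by growth factors, read 10.97, 17.8, 13.8, 15.1 and 27.3 CPM in wild type and 18.4 to 65.7 CPM with PBS (median 44.4). Groups overlapped through wild-type mouse 5, and the log2 fold change was 1.31 (SE 0.38, adjusted p = 0.00292 by edgeR's quasi-likelihood test). Ier3 (chr17:35821684-35822923, plus) read 14.8, 18.9, 26.4, 27.0 and 23.5 CPM in wild type and 28.5 to 84.9 CPM with PBS (median 51.6). No PBS-treated mouse fell in the wild-type range, and the log2 fold change was 1.38 (SE 0.26, adjusted p = 2.64e-05, the same edgeR test).

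Calls for Fos and Egr1 rested on few wild-type mice. Leaving out any 1 of wild-type mice 1 to 4 ended both calls in PBS against wild type by edgeR's quasi-likelihood test, although the log2 fold changes stayed at 1.81 to 1.96 for Fos (adjusted p = 0.0719 to 0.0824) and 1.45 to 1.65 for Egr1 (adjusted p = 0.0534 to 0.071). Without wild-type mouse 5, the log2 fold change was 3.79 for Fos, 2.80 for Egr1 and 3.42 for Fosb, which then passed (adjusted p = 0.00985, the same edgeR test), so that 10 of 10 genes were called. With 1 mouse left out, 6235 to 6610 of all genes were called in this comparison in either direction. Within the first index series alone, which holds 2 wild-type mice, 6 of the 10 passed as higher, where 21.4% of all genes did, and within the second, also with 2, 7 passed against 19.5% of all genes. The third holds 1 wild-type mouse, mouse 5, and was not fitted alone. In both series all 10 log2 fold changes were positive, with Fos at 3.84 and 3.31, and with the index series as a covariate 9 passed, against 24.6% of all genes called higher.

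RGLS4326 moved none of the 10 genes past the thresholds against PBS, in a comparison in which 2.15% of all genes were called (0.935% higher and 1.22% lower). These were 327 genes, and with 1 mouse left out 78 to 574 genes were called, again with none of the 10. With edgeR's quasi-likelihood test 1 of the 10, Fosl2, had an unadjusted p under 0.05, against 36.8% of all genes, and DESeq2 also called 0 of the 10, with 1 at an unadjusted p under 0.05. Among the 10 genes, Jun and Junb had the largest medians in CPM. Jun had a median of 110.5 CPM with RGLS4326 (41.8 to 191) and 112.5 CPM with PBS. Junb had a median of 88.5 CPM with RGLS4326 (30.9 to 173) and 104 CPM with PBS. The median log2 fold change was 0.03 over the 10 genes and 0.00 over all genes.

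**Figure D2:**
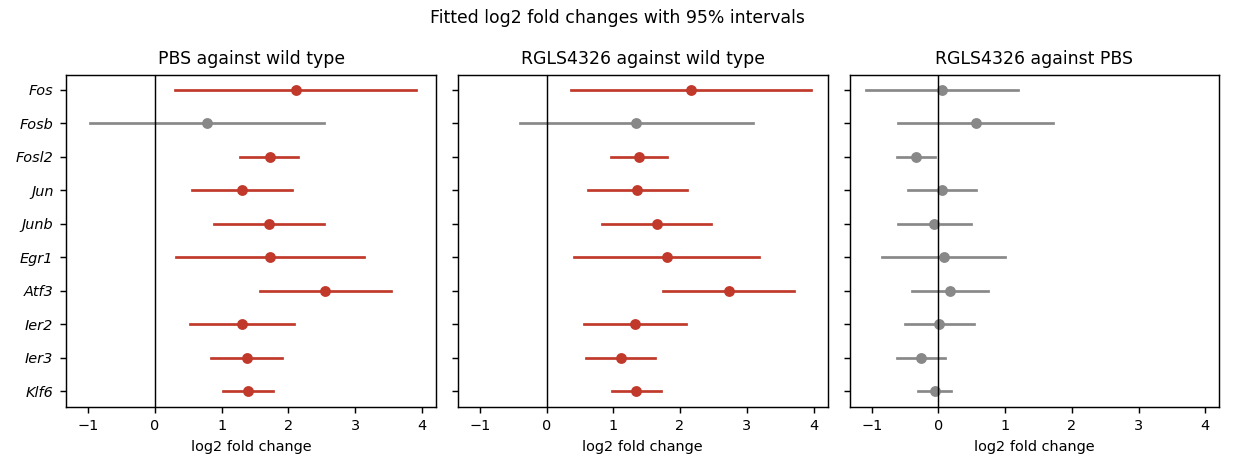
Fitted log2 fold change of each gene (point) with its 95% interval (line) in the 3 comparisons, in red where the gene was called and grey where it was not. In both comparisons with wild type 9 genes lie above 0 and were called, and in RGLS4326 against PBS none was called.

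Intervals of the treatment difference were narrow for some genes and wide for others. For Klf6 the log2 fold change was −0.06, with a 95% interval of −0.31 to 0.19, and it read 22.2 to 84.7 CPM with RGLS4326 (median 65.5). Fosl2 differed most in relation to its error, at −0.34 (SE 0.14, 95% interval −0.62 to −0.05, unadjusted p = 0.0223, adjusted p = 0.0846 by edgeR's quasi-likelihood test). It read 18.1 to 52.2 CPM with RGLS4326 (median 40.1), against the 33.2 to 65.7 CPM with PBS given above. Without RGLS4326-treated mouse 9, which gave the 18.1 CPM, the difference was −0.27 (adjusted p = 0.126, the same edgeR test). Ier3 gave −0.26 (95% interval −0.62 to 0.09) and read 22.7 to 70.8 CPM with RGLS4326 (median 48.0). Atf3 gave 0.18 (−0.39 to 0.75) and read 0.920 to 19.6 CPM (median 9.86), its lowest value again being mouse 9.

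For the remaining 6 genes the interval of the treatment difference lay on both sides of 0. Estimates lay between −0.06 for Junb and 0.56 for Fosb among these 6 genes. The 95% interval ran from −1.08 to 1.19 for Fos, from −0.842 to 0.997 for Egr1 and from −0.60 to 1.72 for Fosb on the log2 scale. It ran from −0.46 to 0.56 for Jun, from −0.60 to 0.48 for Junb and from −0.51 to 0.54 for Ier2. Egr1 read 13.2 to 174 CPM with RGLS4326 (median 71.3), Fosb 0.107 to 10.6 CPM (median 1.36) and Ier2 17.1 to 91.8 CPM (median 38.8). Adjusted p-values of the 9 genes other than Fosl2 lay between 0.272 and 0.97 (edgeR's quasi-likelihood test). Fitted separately, the 3 index series gave 0 calls over all genes tested, so that 0 of 10 there says nothing about these genes. Of the 3 genes with a match to the miR-17 seed, Fosl2 and Klf6 had negative and Atf3 a positive difference, and none passed. The signs of Klf6 and Atf3 turned under some other fits, as given in the last section.

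Against wild type, RGLS4326-treated kidneys showed the same 9 of 10 genes higher, and Fosb again did not pass (log2 fold change 1.35, 95% interval −0.40 to 3.09). Of all genes, 20.3% were called higher and 31.5% were called in either direction. This comparison shares its wild-type mice with the comparison above and is no independent repeat of it. Side by side, the log2 fold changes with PBS and with RGLS4326 were 2.56 and 2.73 for Atf3, 2.11 and 2.17 for Fos, 1.73 and 1.80 for Egr1, and 1.71 and 1.65 for Junb. They were 1.72 and 1.38 for Fosl2, 1.40 and 1.34 for Klf6, 1.38 and 1.11 for Ier3, 1.31 and 1.32 for Ier2, and 1.3 and 1.36 for Jun. None of the 10 genes had every RGLS4326-treated mouse above every wild-type mouse, where 5.04% of all genes did. All 10 genes of RGLS4326-treated mouse 9 fell in the range of the wild type, and 13 of 14 mice lay above the highest wild-type value for Fosl2, Atf3 and Klf6. Klf6 read 22.2 CPM in that mouse. Leaving that mouse out, 9 of 10 genes were again called. With 1 mouse left out, 4563 to 5129 of all genes were called in this comparison in either direction.

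Within the first index series 6 of the 10 passed in this comparison, where 19.5% of all genes were called higher, and within the second 0, although all 10 log2 fold changes there were positive (0.63 for Ier3 to 3.97 for Fosb). The second series holds RGLS4326-treated mouse 9 and 2 wild-type mice, and 372 genes, 2.45% of all, were called in it. Leaving out any 1 of wild-type mice 1 to 4 again ended the call for Fos (log2 fold change 1.87 to 2.01, adjusted p = 0.0719 to 0.0817 by edgeR's quasi-likelihood test). Egr1 lost its call without mouse 1, 3 or 4 (1.53 to 1.65, adjusted p = 0.057 to 0.0642, the same edgeR test). Without wild-type mouse 5, Fosb was called (3.99, adjusted p = 0.00374 by edgeR's quasi-likelihood test), and Fos and Egr1 reached 3.84 and 2.88.

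Mice of the same group differed from each other more for these genes than for most of the transcriptome. The standard deviation of log2(CPM + 1) between mice had a median over the 10 genes of 0.53 in wild type, 0.67 with PBS and 0.76 with RGLS4326, and over the 13784 genes averaging 1 CPM or more a median of 0.11, 0.17 and 0.17. All 10 lay above the median gene in each group. Fos was near the top, with a standard deviation of 1.64, 1.64 and 1.59 and a larger spread than 99.93%, 99.99% and 99.96% of those genes. Egr1 followed with 1.47, 1.298 and 1.22. Klf6 was the least variable in wild type and with PBS, with 0.13 and 0.24, and exceeded 56.5% of genes in wild type. With RGLS4326 it read 0.46, above Fosl2 with 0.38. In that group mouse 9 was the lowest for Klf6 at 22.2 CPM, and the other 13 mice read 44.3 CPM or more.

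**Figure D3:**
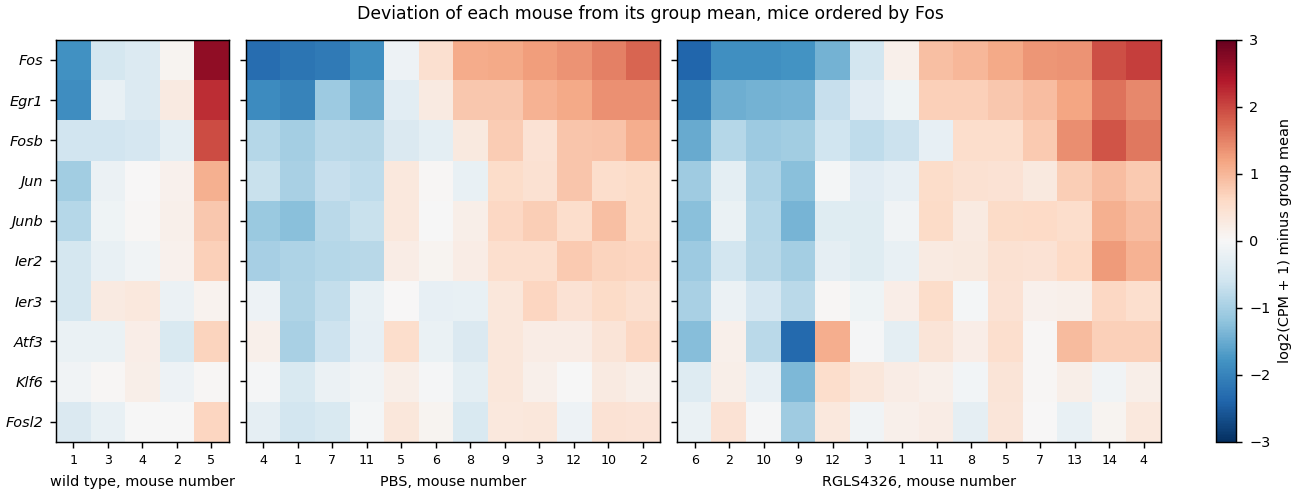
Deviation of each mouse from its group mean in log2(CPM + 1) for the 10 genes (rows), with the mice of each group ordered by Fos (columns, mouse numbers below); red is above and blue below the mean. Egr1, Fosb, Jun, Junb and Ier2 are mostly blue and red in the same mice as Fos, with Fos reaching from −2.39 to 2.07 among RGLS4326-treated mice, whereas Klf6 and Fosl2 vary less.

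How far the other genes were high in the same mice as Fos was described by correlation, and differences between correlations were not tested. For this, log2(CPM + 1) values were correlated between Fos and each of the other 9 genes within a group, as part of 56 correlations whose p-values were adjusted together. Fos values of PBS-treated mice fell into separate ranges, 4 mice at 4.14 to 5.95 CPM and 8 at 21.3 to 82.2 CPM. The 8 were therefore taken first, a restriction chosen after seeing the data. Among the 8, Egr1 followed Fos with r = 0.99 and rho = 0.98 (exact permutation p = 4.96e-05 and 0.000397, adjusted p = 0.000215 and 0.00131). Fosb did so with r = 0.94 and rho = 0.98 (exact permutation p = 0.000322 and 0.000397, adjusted p = 0.00106 and 0.00131). These remained at r = 0.94 and 0.81 without the 2 mice with the most extreme Fos, and at 0.98 and 0.89 within index series. Ier2 gave r = 0.76 (exact permutation p = 0.0212, adjusted p = 0.0342) and rho = 0.81 (exact permutation p = 0.0218, adjusted p = 0.0384) but r = 0.26 within index series. Jun, Junb, Ier3, Atf3, Klf6 and Fosl2 had r between 0.03 and 0.65 among these 8 mice, and none of them passed. Within index series, which hold few of these 8 mice each, the r of all 6 was negative, from −0.72 for Klf6 to −0.24 for Junb. Over all 12 mice, with the split in Fos, Junb (r = 0.95), Jun (0.91) and Ier3 (0.82) passed (adjusted permutation p = 0.00044 to 0.00407). Their r within index series was then 0.95, 0.91 and 0.86. Fosl2 (0.64) and Atf3 (0.62) also passed, at adjusted permutation p = 0.0446 and 0.0449. Klf6 (0.61) did not pass on r (0.0546) but did on rho (0.0305).

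Among the 14 RGLS4326-treated mice the largest gap in Fos was small, between 8.53 and 16.2 CPM, and the set could be taken whole. Egr1 (r = 0.99, rho = 0.99), Ier2 (0.96, 0.97), Junb (0.93, 0.90), Fosb (0.92, 0.97), Jun (0.92, 0.89) and Ier3 (0.86, 0.82) followed Fos closely. Permutation p-values of r were between 1e-05, the smallest that 100000 permutations can give, and 5e-05 for these 6 genes (adjusted p = 9.33e-05 to 0.000215). Atf3 followed Fos less closely (r = 0.63, permutation p = 0.0112, adjusted p = 0.0233; rho = 0.64, permutation p = 0.0164, adjusted p = 0.0317). Klf6 (r = 0.37, rho = 0.22) and Fosl2 (r = 0.27, rho = 0.12) did not pass (permutation p of r = 0.192 and 0.378, adjusted p = 0.219 and 0.407). Without the 2 mice with the most extreme Fos the first 6 kept r of 0.84 to 0.99, and within index series 0.90 to 0.995. Over the 9 mice above the gap, a restriction chosen after seeing the data, 6 of the 9 genes passed, Ier3 no longer among them (r = 0.66, exact permutation p = 0.0476, adjusted p = 0.065).

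Lcn2, a transcript of tubular injury, was set against the same genes. Fosl2 followed it among 12 PBS-treated mice with r = 0.86 and rho = 0.88 (permutation p = 0.00061 and 0.00036, adjusted p = 0.0018 and 0.00131). Without the 2 mice with the most extreme Lcn2 its r was 0.82, and within index series 0.89. Junb gave r = 0.82 and rho = 0.84 (permutation p = 0.00157 and 0.00109, adjusted p = 0.00407 and 0.00321), with 0.82 without the 2 mice and 0.79 within index series. Klf6 was close to it, with r = 0.81 and rho = 0.83 (permutation p = 0.00187 and 0.00138, adjusted p = 0.00455 and 0.00386), 0.76 without the 2 mice and 0.80 within index series. Ier2 (r = 0.70, rho = 0.70), Ier3 (r = 0.69, rho = 0.66) and Atf3 (r = 0.67, rho = 0.78) also passed on both measures (adjusted permutation p = 0.0108 to 0.0384), but without the 2 mice Atf3 no longer did (r = 0.57, permutation p = 0.085). Jun and Egr1 passed on r (adjusted permutation p = 0.0253 and 0.0449) and not on rho (0.0754 and 0.0769), and Fosb on neither. Fos gave r = 0.63 and rho = 0.65 (adjusted permutation p = 0.0468 and 0.0423), but its values over these 12 mice fell into separate ranges, as given above. Mice of the lower Fos range were also the lowest in Egr1, Fosb, Jun, Junb and Ier2, with 18.4 to 21.0 CPM of Ier2 against 40.1 or more. Over the 12 mice, r for these genes cannot separate a graded relation from a difference between those ranges.

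With RGLS4326, mouse 9 lay far from the others in Lcn2, and the correlations were computed over the other 13 mice, a choice made after seeing the data, with p-values adjusted over these 10. Fosl2 again followed Lcn2, with r = 0.84 and rho = 0.82 (permutation p = 0.00066 and 0.00088, adjusted p = 0.0066 and 0.0088), 0.85 without the 2 most extreme mice and 0.87 within index series. The 9 other genes did not pass. Klf6 gave r = 0.50 and rho = 0.49 (permutation p = 0.0823 and 0.0884, adjusted p = 0.274 and 0.35), and Junb r = 0.42 and rho = 0.40 (permutation p = 0.155 and 0.176, adjusted p = 0.387 and 0.441). Fos gave r = 0.24 and rho = 0.093 (permutation p = 0.42 and 0.764, adjusted p = 0.524 and 0.764). With mouse 9 included 6 of the 10 passed on r, and without it 1, whether p-values were adjusted over these 10 or over the 56. The share of all genes that would pass was not computed, so these counts say nothing particular to the 10 genes. Ier3 moved little, from r = 0.64 to 0.58 (permutation p = 0.0343, adjusted p = 0.172), whereas Klf6 moved from 0.88 to the 0.50 given above. Whether the correlation with Lcn2 differs between genes or between treatment groups was not tested.

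**Figure D4:**
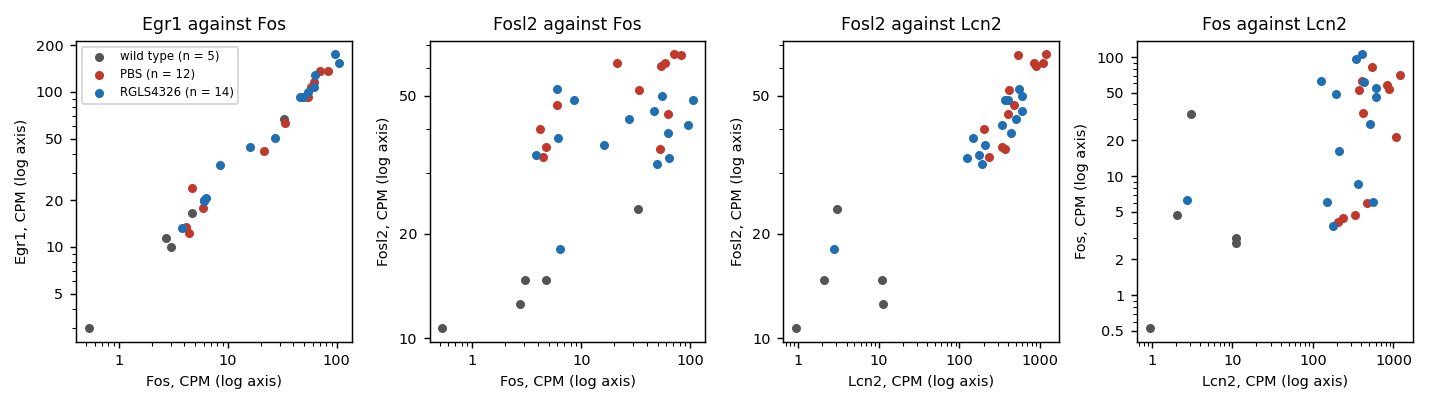
Egr1 and Fosl2 against Fos, and Fosl2 and Fos against Lcn2, in CPM on log axes, 1 point per mouse for 5 wild-type, 12 PBS-treated and 14 RGLS4326-treated kidneys. Egr1 and Fos form 1 narrow line through all 3 groups, while Fosl2 goes with Lcn2; the RGLS4326 point at 2.76 CPM of Lcn2 is mouse 9.

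Genes most like 4 of the members were sought by the correlation of deviations from the group means over 31 mice, among 13783 other genes averaging 1 CPM or more, as a description without a test. Nearest to Fos were Egr1 (r = 0.99), Btg2 (0.97), Ier2 (0.96), Nr4a1 (0.95) and Junb (0.94). Btg2 is an antiproliferative gene and Nr4a1 an orphan nuclear receptor, and both are immediate early genes. Nearest to Jun were Btg2 (0.96), Junb (0.96), Ier2 (0.95), Egr1 (0.93) and Fos (0.92). Among the 50 genes most like Fos there were 6 other members, and among the 50 most like Jun 7.

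Nearest to Atf3 were Lif (0.88), Klf6 (0.86), Ankrd1 (0.86), Phf11a (0.86) and Ch25h (0.85). Nearest to Klf6 were Lif (0.94), Vcam1 (0.93), Rhob (0.92), Myc (0.91) and Ankrd1 (0.91). Lif encodes a cytokine, Vcam1 an adhesion molecule of injured tubules and activated endothelium, and Myc a growth-related transcription factor. Of the members, Jun and Klf6 were among the 50 genes most like Atf3, and Atf3 was among the 50 most like Fosb, Jun, Junb, Egr1, Ier2 and Ier3. None was among the 50 most like Klf6 or most like Fosl2. These lists for Atf3 and Klf6 depended on RGLS4326-treated mouse 9. Without it 1 of the 5 genes, Lif, stayed among the 5 nearest to Atf3 and 2, Lif and Rhob, among the 5 nearest to Klf6, with r over the first 5 genes of 0.74 to 0.80 and 0.82 to 0.90, and 6 members were among the 50 most like Atf3. The 5 genes nearest to Fos and the 5 nearest to Jun were the same without it and without wild-type mouse 5.

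Relative to the length of the longest protein-coding transcript, the levels in PBS-treated kidneys followed the order Junb (median 57.3 CPM per kb), Ier3 (45.6), Jun (35.3), Ier2 (29.2), Fos (20.6), Egr1 (17.3), Klf6 (14.6), Fosl2 (7.57), Atf3 (4.97) and Fosb (0.473). Ranges over the 12 mice overlapped between neighbours in this order, except that Klf6 (10.7 to 18.8 CPM per kb) lay above Fosl2 (5.08 to 10.1) and Atf3 (1.94 to 6.95) above Fosb (0.094 to 1.26). In wild type Ier3 was the highest (median 20.8 CPM per kb), followed by Junb (15.7) and Jun (12.4), and Fos was among the lowest (1.44).

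The pathway around these genes was examined through lists of its parts. Of 11 other AP-1 family genes 7 were higher in PBS-treated than wild-type kidneys and 0 lower, with a median log2 fold change of 0.97. Of all genes, 24.6% were called higher and 17.8% lower. Without the threshold on size 7 of the 11 were higher and 4 lower, where 37.7% and 36.6% of all genes were. The genes named from each list are those with the smallest p in the comparison described, so their values illustrate the list and the lack of overlap between groups, which 20.3% of all genes showed toward higher values, follows in part from that choice. Batf, a dimer partner of Jun proteins in immune cells, read 0.177 to 0.602 CPM in wild type and 1.53 to 3.095 CPM with PBS. Jund, the steadily expressed Jun family member, read 115 to 158 and 200 to 378.5 CPM. The log2 fold changes were 2.59 (SE 0.38) and 0.97 (SE 0.16).

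Of 32 other immediate early genes tested, 21 were higher and 2 lower, with a median of 0.92. Of all genes, 24.6% were called higher and 17.8% lower. Myc read 3.68 to 5.24 CPM in wild type and 15.6 to 32.5 CPM with PBS, and Ier5, another immediate early response gene, 10.1 to 15.3 and 28.2 to 55.97 CPM. Textbook target genes of AP-1 and Egr1 were higher for 12 of 18 and lower for 1, with a median of 1.33. Spp1, which encodes osteopontin, read 319 to 822 CPM in wild type and 2522 to 5836 CPM with PBS, and Ccl2, a monocyte chemokine, 0.118 to 1.19 and 5.74 to 15.03 CPM.

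**Figure D5:**
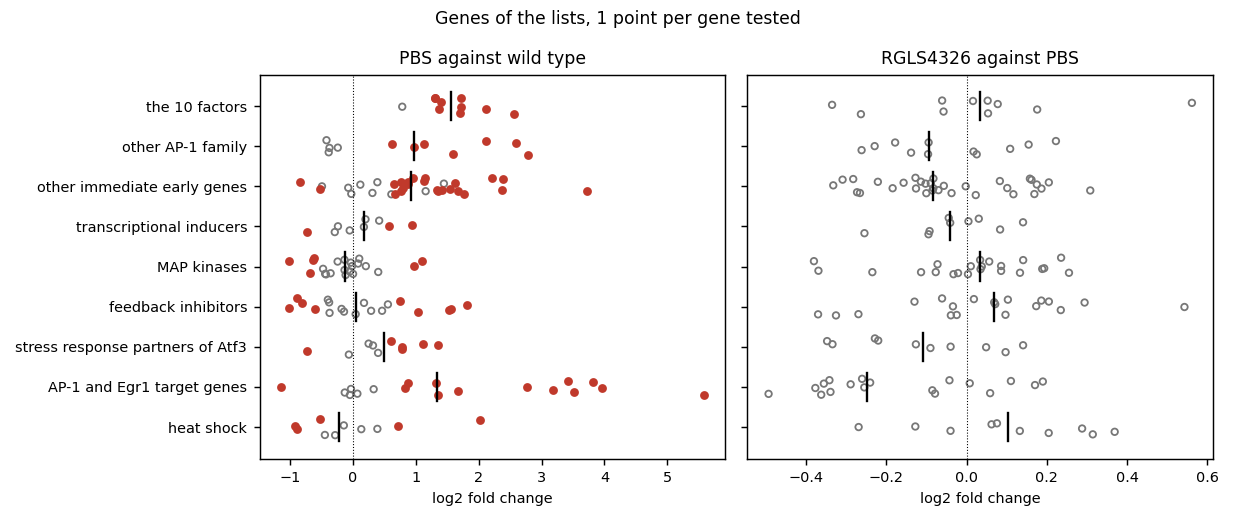
Log2 fold change of each tested gene (points, filled red where called) in the 10 factors and 8 lists around them, with a bar at each list median, with PBS against wild type on the left and the treatment comparison on the right; the horizontal scales of the panels differ. List medians reach 1.55 for the 10 factors and 1.33 for the target genes on the left, and no gene of these lists was called on the right.

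The machinery upstream was counted in the same way. Of 9 transcriptional inducers 2 were higher, Elk3 (log2 fold change 0.93) and Mkl1 (0.57), and 1 lower, with a median of 0.18. Elk3 is a partner of serum response factor and Mkl1 an actin-regulated coactivator of it. Of 22 MAP kinases 2 were higher and 4 lower, with a median of −0.12. Without the threshold on size 3 were higher and 12 lower, where 37.7% and 36.6% of all genes were (74.3% in either direction). Map2k4 and Mapk9, kinases of the Jun N-terminal kinase branch, had negative differences of −0.44 and −0.47, below the threshold on size. Of 19 feedback inhibitors 5 were higher and 4 lower (median 0.04), among them Dusp10 (1.56), a phosphatase of stress kinases, and Spry4 (−1.02), an inhibitor of receptor signalling. Of 10 stress response partners of Atf3 5 were higher and 1 lower (median 0.50), with Ddit4 at 1.12 and Sesn2 at −0.73. Of 10 heat shock genes 2 were higher and 3 lower (median −0.21), with Hspb1 at 2.02 and Hspd1 at −0.89. Of all genes 24.6% were called higher and 17.8% lower, and a list's count near those shares is not read as a result about the list.

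With RGLS4326, 0 of the 131 genes tested from these 8 lists were called against PBS, by edgeR's quasi-likelihood test (2.15% of all genes) and also by DESeq2 (2.54%). An unadjusted p under 0.05 was reached by 37 of them in edgeR (28.2%) and 36 in DESeq2 (27.5%), against 36.8% of all genes in edgeR. The list medians lay between −0.25 for the AP-1 and Egr1 target genes and 0.10 for heat shock genes. Without the threshold on size 11 of the 131 passed in edgeR (8.4%, against 15.8% of all genes) and 17 in DESeq2 (13%, against 21.6% of all genes with an adjusted p). The 11 were 4 of the 10 heat shock genes, 3 MAP kinases, 3 feedback inhibitors and 1 AP-1 gene. Of these, Atf2, a constitutive AP-1 partner, passed at 0.15, Map2k4 at 0.14 and Mapk14, which encodes p38, at 0.19. Spry1, an inhibitor of receptor signalling, passed in the other direction at −0.37, and 0 of the 10 factors passed under this looser rule. Pdgfa and Hmox1, the target genes with the smallest p-values, read 11.2 to 23.1 and 28.3 to 39.9 CPM with RGLS4326 and 17.8 to 29.2 and 22.02 to 33.7 CPM with PBS.

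Markers of cell types and of injury moved with disease in the same mice. Injured tubule markers were higher for 9 of 9 in PBS against wild type, their summed level running from 348 to 553 CPM in wild type and from 1084 to 3451 CPM with PBS. Lcn2 read 0.944 to 11.2 and 205 to 1205 CPM, and Havcr1, which encodes the injury protein Kim-1, 4.95 to 23.7 and 25.7 to 63.0 CPM. Macrophage markers were higher for 7 of 8 (185 to 221 CPM summed in wild type, 516 to 881 with PBS), lymphocyte markers for 7 of 7 (5.09 to 7.89 and 11.7 to 27.8 CPM) and fibroblast markers for 6 of 8 (165 to 233 and 551 to 1178 CPM). Proximal tubule markers were lower for 10 of 10. Collecting duct markers were higher for 5 of 8 and lower for 1 (649 to 1016 and 1545 to 3100 CPM summed), and loop and distal tubule markers were lower for 4 of 5. Endothelium markers were lower for 2 of 7, podocyte markers higher for 2 of 5, and neutrophil markers higher for 1 of 3, and nothing is read from these last 3 counts beside the 24.6% of all genes called higher and 17.8% lower. The part of these cell types in the rise of the 9 factors was not tested.

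With RGLS4326 against PBS, 0 of the injured tubule, macrophage, neutrophil, lymphocyte, fibroblast, endothelium and podocyte markers were called, and 1 each of the proximal tubule and loop and distal tubule markers was higher and 1 collecting duct marker lower, where 0.935% of all genes were called higher and 1.22% lower. The loop and distal tubule marker called, Pvalb, had a median of 5.78 CPM with RGLS4326 but a highest value of 76.6 CPM, against 1.49 to 7.80 CPM with PBS. Marker calls were not examined without mouse 9. Without the threshold on size 4 of 10 proximal tubule and 2 of 5 loop and distal tubule markers passed as higher, against 9.15% of all genes, and 4 of 8 collecting duct markers as lower, against 6.66%. Injured tubule markers had a median log2 fold change of −0.51, with 8 of 9 negative and 0 passing, and their summed level ran from 526 to 2174 CPM with RGLS4326. The part of these markers in the values of the 10 factors was not tested. In mouse 9 the summed injured tubule markers were 526 CPM and the macrophage markers 198 CPM, within the wild-type ranges, fibroblast markers were 264 CPM, above that range, and the summed level of the 10 factors was 185 CPM. Wild-type mouse 5, with a summed level of the 10 factors of 341 CPM, had 349.9 CPM of injured tubule markers and 193 CPM of macrophage markers, inside the range of the other wild-type mice. Its collecting duct markers (1016 CPM) and lymphocyte markers (7.89 CPM) were the highest of the 5, and its loop and distal tubule markers (6435 CPM) the lowest. Its heat shock genes summed to 2375 CPM, the lowest of the 5 wild-type mice. Of the red blood cell genes 1 of 7 passed the filter on low counts, Alas2, and 5 were at 0 in every wild-type mouse. Alas2, an enzyme of heme synthesis in red cell precursors, was lower in PBS-treated than in wild-type kidneys (0.361 to 1.53 against 4.39 to 7.57 CPM), with a log2 fold change of −2.76 (adjusted p = 3.82e-07 by edgeR's quasi-likelihood test). No mitochondrially encoded transcripts were among the genes analysed here, so that sign of RNA quality was not examined.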

How the data were processed

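Kidney poly(A) RNA was sequenced by the authors from stranded TruSeq mRNA libraries as paired-end reads. The deposited values are raw read counts per gene. The labels name the GRCm38 (mm10) build, and FastQC 0.11.2, Trim Galore, STAR, SAMtools 1.1, HTSeq 0.6.1 and Picard 1.119. The gene annotation and the strand setting of the counting are not given in the sources used here. Entries that name no gene, 26.91% to 31.12% of the reads in each library, were left out.

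Counts were fitted with edgeR 4.0.16 in R 4.3.3 (filterByExpr, TMM scaling, quasi-likelihood test, 1 coefficient per group, all 31 mice, no covariates), with Benjamini-Hochberg adjustment over 15185 genes. Calls needed an adjusted p under 0.05 together with a log2 fold change beyond 0.5 in size. DESeq2 1.42.0 was the alternative tool. The script was tested on simulated counts with known changes. Correlations used log2(CPM + 1) and 100000 permutations, exact for fewer than 10 mice, and were two-sided. Figures and correlations used Python 3.11.15 with matplotlib 3.10.9, pandas 2.3.3, scipy 1.17.1 and numpy 2.4.6.

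Total counts on genes were 16519885 to 25582754 with PBS, 14892524 to 27459962 with RGLS4326 and 19449688 to 20733811 in wild type, so the precision for Fosb, at 2 counts in some libraries, was low. Replicates were separate samples in the labels, and p-values measure the spread between them. Members and lists were chosen with earlier results of these data known. Named were all 10 members, Lcn2, Havcr1 and the 5 genes most like Fos, Jun, Atf3 and Klf6. List genes named came from each list's 2 lowest p-values in PBS against wild type and 2 in RGLS4326 against PBS. Not all of those are named. Xist, Ddx3y and Alas2 were added after their values were seen. The same replicate numbers in the groups belong to different animals and their deviations were not shared (over 12 pairs the correlation averaged −0.0849, with 4 above 0.1), so no pairing was used. Alternatives were other scaling, filters, samples, covariates and single mice left out.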

Additional observations from a re-analysis of the deposited data

Results flagged for a closer look

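Wild-type mouse 5 stood apart from the other 4 wild-type mice for 3 of the 10 genes examined. Its Fos was 32.9 CPM, and the gap to the next mouse was 0.872 of the group's whole range. Its Fosb was 5.42 CPM (0.955 of the range) and its Egr1 66.7 CPM (0.788 of the range). The limit for 5 values is 0.71 (Dixon's test), which chance passes in about 1 of 20 groups. On the log2(CPM + 1) scale, on which spread and correlations were computed, Fosb alone stood apart (0.889), with Fos at 0.576 and Egr1 at 0.478. These genes rose and fell together between mice, so the 3 results are not independent. The injured tubule and macrophage markers of this mouse were inside the range of the other wild-type mice. Its summed collecting duct markers (1016 CPM) and lymphocyte markers (7.89 CPM) were the highest of the 5 mice and its loop and distal tubule markers (6435 CPM) the lowest, and the origin of its high values was not tested. This mouse was also the only wild-type mouse of the third index series, so among the wild type the mouse and the series cannot be told apart.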

How the results depend on the processing

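Of the 10 genes, 9 were called in both comparisons with wild type with other scaling, filters and tools and with the index series as a covariate. Leaving out 1 mouse gave 7 to 10 called genes in each and 0 in RGLS4326 against PBS. Within the second index series 0 of the 10 were called in RGLS4326 against wild type. Over all genes, dropping the threshold on size gave 11281 calls in PBS against wild type, 2402 in RGLS4326 against PBS and 9861 in RGLS4326 against wild type, and the second index series alone 372 in the last. For RGLS4326 against PBS, calls numbered 210 with only those groups fitted, 0, 0 and 0 within index series 1, 2 and 3, and 78 to 574 with 1 mouse left out, against 327; ranges for the other comparisons were 6235 to 6610 and 4563 to 5129. The replicate block, which pairs animals that share only a number, gave 43 calls there and turned the log2 fold change of Fos (−0.45), Fosb (−0.27), Jun (−0.11), Egr1 (−0.21), Atf3 (−0.10) and Ier2 (−0.19). With it 9 and 7 of the 10 genes were called against wild type, where 25.5% and 21.5% of all genes were called higher. Index series 1 alone turned Junb (0.0812), Egr1 (−0.0177) and Klf6 (0.15), series 2 Atf3 (−0.14) and Ier2 (−0.0159), and series 3 Fos (−0.12), Egr1 (−0.0027) and Ier2 (−0.0321). With 1 mouse left out the log2 fold change ran from −0.15 to 0.21 for Fos, −0.0258 to 0.14 for Jun, −0.16 to 0.031 for Junb, −0.076 to 0.20 for Egr1, −0.12 to 0.0916 for Ier2 and −0.10 to 0.0126 for Klf6. None of these values was called, and the cause was not tested. Of 20 correlations with Lcn2, 15 passed and 9 did so without the 2 farthest mice, and within RGLS4326 1 of 10 passed without mouse 9, chosen after seeing the data, against 6 with it, adjusted over 10 or over 56; with Fos, 3 of 9 passed in the 8 PBS-treated mice above the gap, a restriction chosen after seeing the data, against 8 in all 12. The share of all genes that would pass these correlations was not computed. Without the threshold on size, 11 of the 131 genes of the 8 lists passed in RGLS4326 against PBS in edgeR and 17 in DESeq2. Depth limits Fosb most.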
